A study of Homo sapiens with 4 samples.

Results

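Metallothionein genes and 3 genes that control cellular zinc were followed at the mRNA level in a pair of 786-O sublines. The genes were chosen by symbol as MT1E, MT1F, MT1G, MT1X, MT2A, MTF1, SLC30A1 and SLC39A10, and 7 of these 8 had a row among the 12912 genes of the count table. MT1G was not analysed here. The 786-O line comes from a clear cell renal carcinoma. 786-O-Ctrl, labelled wild type and VHL-null, was compared with 786-O-VHL, the subline in which a retroviral vector for HA-tagged VHL restores the gene, with 2 libraries per group. Both sublines are labelled TR, which in the study stands for a triple reporter of GFP, luciferase and thymidine kinase. Both were grown in RPMI1640 with fetal bovine serum. Each group is 1 subline, nothing in the sources says that the libraries of a group came from separate cultures, and the p-values therefore measure the spread between these libraries, which may be technical.

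Metallothioneins are small cysteine-rich proteins that bind zinc, copper and cadmium in the cytosol and are abundant in kidney tubule cells. When free zinc rises, the zinc finger factor MTF1 binds metal response elements in the promoters of metallothionein genes and of SLC30A1 and raises their transcription. SLC30A1 (ZnT1) exports zinc across the plasma membrane, and SLC39A10 (ZIP10) imports it. MTF1 is also known to hold SLC39A10 down when zinc is plentiful.

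Matches to the core of the metal response element were looked for in the promoters of 5 members. Whether MTF1 binds at any match was not tested. The 250 bases before the RefSeq start site are printed for a metallothionein with ample counts, for one with few, and for the member with the largest change, on the gene's own strand and in GRCh38.p14 coordinates. Capitals mark each match to the element's core, TGCACNC or TGCGCNC, on either strand. MT2A lies on the plus strand at chr16:56608334-56608583, MT1X on the plus strand at chr16:56682220-56682469 and SLC30A1 on the minus strand at chr1:211579162-211579411.
MT2A: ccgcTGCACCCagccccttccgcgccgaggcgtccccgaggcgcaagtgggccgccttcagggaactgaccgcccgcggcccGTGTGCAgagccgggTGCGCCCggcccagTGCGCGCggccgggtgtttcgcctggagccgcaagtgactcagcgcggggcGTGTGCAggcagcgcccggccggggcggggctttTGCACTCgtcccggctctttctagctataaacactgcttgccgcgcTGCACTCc
MT1X: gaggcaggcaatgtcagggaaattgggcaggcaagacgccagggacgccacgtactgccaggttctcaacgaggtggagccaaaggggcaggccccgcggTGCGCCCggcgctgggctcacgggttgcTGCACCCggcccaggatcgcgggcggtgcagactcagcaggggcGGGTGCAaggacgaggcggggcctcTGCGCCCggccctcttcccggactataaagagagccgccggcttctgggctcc
SLC30A1: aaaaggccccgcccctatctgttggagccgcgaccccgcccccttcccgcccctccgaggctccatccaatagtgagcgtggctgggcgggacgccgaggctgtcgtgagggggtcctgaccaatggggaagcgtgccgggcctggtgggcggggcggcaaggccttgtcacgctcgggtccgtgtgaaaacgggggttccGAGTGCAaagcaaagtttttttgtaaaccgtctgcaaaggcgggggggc
The MT2A window held 7 matches, the MT1X window 4 and the SLC30A1 window 1. Of 35116 RefSeq promoter windows of this length, 24.8% held at least 1 match, 0.37% at least 4 and 0.0313% at least 7. The windows of MTF1 and of both listed starts of SLC39A10 held no match, which says only that these letters are not in those windows. The core of the hypoxia response element, ACGTG or GCGTG on either strand, was present 3 times in the SLC30A1 window, 2 times in that of MTF1 and 1 time each in those of MT2A, MT1X and both starts of SLC39A10. Of all windows, 43.2% held at least 1 such match, 19.4% at least 2 and 7.76% at least 3. The 1 in MT2A overlapped a metal response element match. Sequences for 5 of the 8 members were found in the table of promoters, and MT1E, MT1F and MT1G were without one.

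The counts summed to between 2807779 in 786-O-VHL replicate 1 and 22141263 in the deeper 786-O-Ctrl library. The other libraries summed to 15714166 and 16114120. Levels are given as CPM, the counts of a gene relative to the library total after scaling with edgeR's TMM factors. A count of 0 would allow up to 3 counts, or between 0.142 and 1.02 CPM depending on the library, and such limits and all binomial intervals cover counting error only. Both 786-O-Ctrl columns carry the same replicate number and are told apart here by depth, and values of the 786-O-Ctrl pair are always given for the deeper library first. VHL itself was at 43.4 ± 0.741 CPM (n = 2, SD) in 786-O-Ctrl and at 171 ± 10.5 CPM (n = 2, SD) in 786-O-VHL. It was thus higher where the labels say that it was restored, but its mRNA was also present in the subline labelled VHL-null. The study describes 786-O as carrying a frameshift mutation in VHL. All 6 renal and 786-O markers (PAX8, PAX2, KRT8, KRT18, VIM and EPAS1) were detected, and 4 of them were lower and 1 higher in 786-O-VHL. Among all genes tested, 31.9% were lower and 32.6% higher. On the log2 scale VIM changed by -1.21, PAX8 by -0.90, KRT8 by -0.56, PAX2 by -0.40 and EPAS1 by 1.37, and KRT18 was not called (log2 fold change -0.12, edgeR FDR = 0.103). EPAS1 encodes HIF2α, whose protein the study found diminished by VHL in Western blots, whereas these values are of mRNA. The immune markers PTPRC, CD68 and CD3E had no row in the table, and of the endothelial markers only PECAM1 had one, at 0.347 CPM in 786-O-Ctrl and 0.348 CPM in 786-O-VHL. Fibroblast markers COL1A1 and PDGFRB were at 6.04 and 3.76 CPM in 786-O-Ctrl and at 6.83 and 5.94 CPM in 786-O-VHL, PDGFRB passing the test (edgeR FDR = 0.0147) and COL1A1 not (edgeR FDR = 0.599). The part of these shifts in the results was not tested.

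Of the 7 measured members, SLC30A1, SLC39A10, MT1F and MT1E rose in 786-O-VHL, and MT2A, MT1X and MTF1 did not pass the test. A gene is called where edgeR's quasi-likelihood test gives an FDR (Benjamini-Hochberg adjusted over 12335 genes tested) under 0.05, and all 7 passed the filter on low counts. Thus 4 of 7 members were higher and 0 were lower, where 32.6% of all genes tested were higher and 31.9% were lower. With so few members these shares are a description. At an unadjusted p under 0.05 the member counts were again 4 and 0, limma-voom gave 4 and 0, and DESeq2 gave 3 and 0. The median log2 fold change of 786-O-VHL over 786-O-Ctrl was 0.41 over the 7 members and 0.02 over all genes tested. No member passed a fold change over 4 with an FDR under 0.01, which 4.46% of all genes passed. Calls over all genes were 50.5% higher with TMM scaling and 62.1% higher with library totals alone, a scaling that raised the median log2 fold change of all genes by 0.13.

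**Figure D1:**
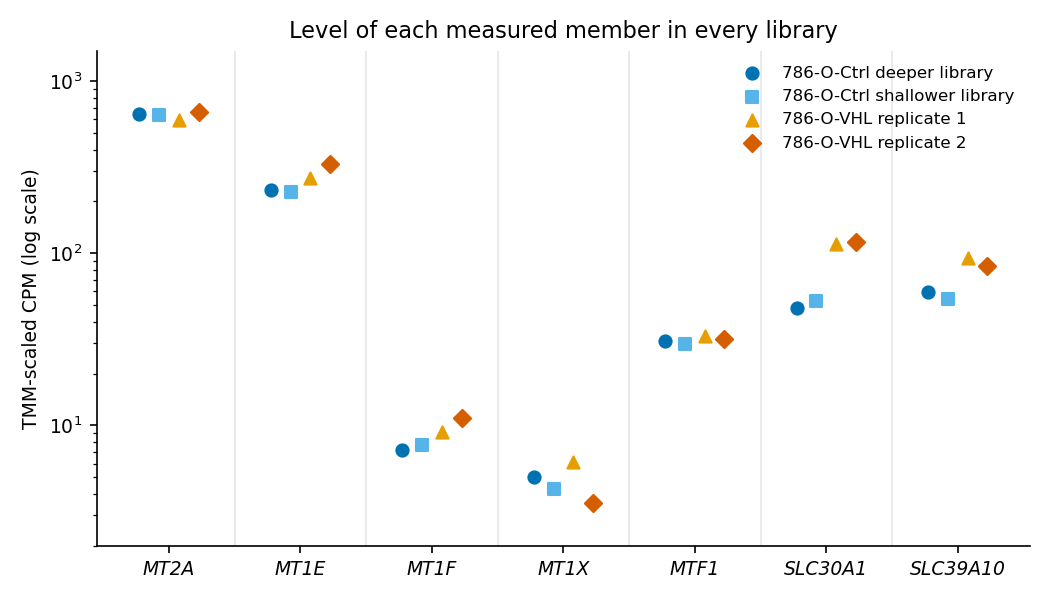
TMM-scaled CPM (log axis) of the 7 measured members, 1 point for each of the 4 libraries. SLC30A1 sits near 50 CPM in both 786-O-Ctrl libraries and at 114 and 116 CPM in both 786-O-VHL libraries, whereas the MT2A points of the groups overlap between 596 and 658 CPM.

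MT2A, the main metallothionein of most human cells, did not pass the test between the sublines. It was at 645 and 634 CPM in the 786-O-Ctrl pair and at 596 and 658 CPM in 786-O-VHL replicates 1 and 2. The groups overlapped, since the 786-O-VHL values lay on both sides of the 786-O-Ctrl values. The log2 fold change was -0.02 (standard error, SE, 0.0622, edgeR FDR = 0.789), and the 95% interval of the fold change ran from 0.903 to 1.08. The MT2A gene lies on the plus strand of chromosome 16 of GRCh37 from 56642496 to 56643409 (ENSG00000125148.7), with no other annotated gene across it. The log2 fold change was 0.04 when replicate 1 of 786-O-VHL was left out and 0.11 with library totals alone, and no alternative run placed it past the threshold.

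MT1E, the metallothionein 1 isoform with the most counts here, rose by 1.33-fold. Its level was 232 and 228 CPM in the 786-O-Ctrl pair, against 273 and 329.6 CPM in 786-O-VHL replicates 1 and 2. The groups did not overlap, but the 786-O-VHL libraries differed from each other by more than the 786-O-Ctrl libraries did. The log2 fold change was 0.41 (SE 0.0704, edgeR FDR = 9.45e-06), with a 95% interval from 0.27 to 0.56. MT1E (ENSG00000169715.14) lies on the plus strand from 56659387 to 56661024 in the same cluster, with no overlapping gene. The call was kept under all 12 alternatives, although leaving out replicate 2 of 786-O-VHL took the log2 fold change to 0.24 (edgeR FDR = 0.00306).

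MT1F and MT1X were covered by few counts. MT1F had 151 and 115 counts in the 786-O-Ctrl pair against 27 and 186 in 786-O-VHL replicates 1 and 2, or 7.17, 7.64, 9.16 and 11.0 CPM. Both 786-O-VHL values were above both 786-O-Ctrl values, and the log2 fold change was 0.52 (SE 0.181, edgeR FDR = 0.0131). The call was lost in 5 of 12 alternatives, among them DESeq2 (FDR = 0.201). It was also lost without the deeper 786-O-Ctrl library (log2 fold change 0.46, edgeR FDR = 0.144), without the shallower one (0.55, edgeR FDR = 0.0664) and without 786-O-VHL replicate 2 (0.31, edgeR FDR = 0.451). MT1X was at 4.99 and 4.25 CPM in 786-O-Ctrl and at 6.10 and 3.56 CPM in 786-O-VHL replicates 1 and 2. The replicates of 786-O-VHL thus fell on opposite sides of the 786-O-Ctrl values, the log2 fold change was -0.19 (edgeR FDR = 0.549), and its 95% interval from -0.74 to 0.36 leaves changes in either direction. When replicate 2 of 786-O-VHL was left out the sign turned, with a log2 fold change of 0.38 (edgeR FDR = 0.456).
MT1F (ENSG00000198417.7) and MT1X (ENSG00000187193.9) lie on the plus strand of chromosome 16 from 56691643 to 56694610 and from 56716382 to 56718108. Metallothionein genes are close copies of each other, so reads can be split between them or dropped. Of the 50-base windows of the main (canonical) MT1X transcript, 51.0% occur in a transcript of another gene, and 67 of its 305 windows of 100 bases do, all of the latter in 1 annotated gene that overlaps MT1X on its own strand. For MT2A, MT1E and MT1F the shares were 11.1%, 10.3% and 6.12% at 50 bases and 0% at 100 bases. The level of MT1X is uncertain for this reason.

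MT1E took a larger share of the summed counts of the 4 measured metallothioneins in 786-O-VHL than in 786-O-Ctrl. The list of the family named 16 genes and pseudogenes, and only these 4 had a row, so the shares leave out the rest. MT1E shares 50-base windows with 7 other annotated genes, among them MT1G, MT1M and MT1H, which had no row. The summed level was 881 ± 11.1 CPM (n = 2, SD) in 786-O-Ctrl and 943 ± 84.0 CPM (n = 2, SD) in 786-O-VHL, a difference smaller than the spread of the 786-O-VHL libraries. With library totals alone it was 841 CPM in 786-O-Ctrl against 988 CPM in 786-O-VHL, and the 786-O-VHL libraries (0.0928% and 0.105% of all counts) were both above the 786-O-Ctrl libraries (0.0846% and 0.0837%). MT1E made up 26.1% of the summed counts in each 786-O-Ctrl library (95% Wilson intervals 25.5 to 26.8% in the deeper and 25.4 to 26.9% in the shallower). In 786-O-VHL it made up 30.9% of them in replicate 1 (29.1 to 32.7%) and 32.9% in replicate 2 (32.2 to 33.6%). Neither interval of 786-O-VHL reached those of 786-O-Ctrl. These intervals cover counting error only, and over all genes the replicates differed by more than that. The share of MT2A was 72.5% in each 786-O-Ctrl library, and 67.4% and 65.7% in 786-O-VHL replicates 1 and 2. Set against each other within a library, which removes the effect of scaling, there were 36.1 and 36.0 MT1E counts per 100 MT2A counts in the 786-O-Ctrl pair. In 786-O-VHL replicates 1 and 2 there were 45.8 and 50.1. Two-sided exact permutation tests cannot go below p = 0.333 with 2 libraries against 2, and no p is given for these ratios.

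**Figure D2:**
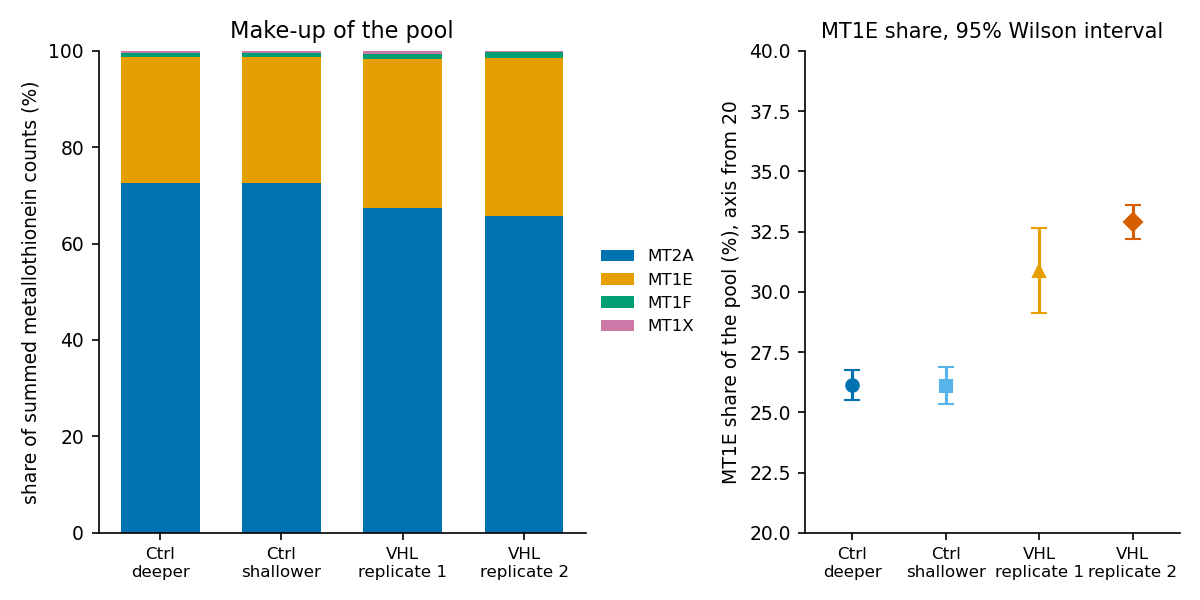
Left, the share of the summed metallothionein counts (%) that each measured gene took in each of the 4 libraries. Right, the MT1E share alone on an axis from 20%, with 95% Wilson intervals that cover counting error only. The MT1E share was 26.1% in both 786-O-Ctrl libraries, against 30.9% and 32.9% in 786-O-VHL.

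SLC30A1, the plasma membrane zinc exporter, changed most among the members. It was at 48.3 and 52.8 CPM in the 786-O-Ctrl pair, and at 114 and 116 CPM in 786-O-VHL replicates 1 and 2. The groups were far apart and each was tight, with replicates differing by 1.09-fold in 786-O-Ctrl and by 1.02-fold in 786-O-VHL. The fold change was 2.29 (95% interval 2.07 to 2.54), a log2 fold change of 1.20 (SE 0.0718, edgeR FDR = 2.21e-14). Over all genes tested, 7.65% had a higher log2 fold change than SLC30A1, against 19.0% for SLC39A10, 22.3% for MT1F and 26.9% for MT1E. SLC30A1 (ENSG00000170385.10) spans 211744910 to 211752503 on chromosome 1 (GRCh37, minus strand), without overlapping genes, and none of its 50-base windows occur in another gene. Under all 12 alternatives the log2 fold change was between 1.09 and 1.33.

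SLC39A10, a zinc importer, rose as well. Its level was 59.3 and 54.4 CPM in the 786-O-Ctrl pair, against 93.6 and 84.5 CPM in 786-O-VHL replicates 1 and 2. All 786-O-VHL values were above all 786-O-Ctrl values. The fold change was 1.53 (95% interval 1.37 to 1.70), a log2 fold change of 0.61 (SE 0.0752, edgeR FDR = 5.07e-08), and it stayed between 0.53 and 0.74 under the alternatives. SLC39A10 (ENSG00000196950.14) lies on the plus strand of chromosome 2 from 196440701 to 196602426, with 2 annotated genes on the opposite strand across parts of it.

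MTF1, the factor that senses zinc, did not pass the test. It was at 31.0 and 29.8 CPM in the 786-O-Ctrl pair, and at 33.2 and 31.8 CPM in 786-O-VHL replicates 1 and 2. The groups did not overlap, but the gap between them was smaller than the distance between the replicates of either group. The log2 fold change was 0.08 (SE 0.102, edgeR FDR = 0.527), and the 95% interval of the fold change ran from 0.912 to 1.22. MTF1 (ENSG00000188786.10) spans 38275246 to 38325264 on chromosome 1, minus strand, where 1 annotated gene overlaps it on each strand. Per MTF1 count there were 1.56 and 1.77 SLC30A1 counts in the 786-O-Ctrl pair, and 3.42 and 3.66 in 786-O-VHL replicates 1 and 2.

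**Figure D3:**
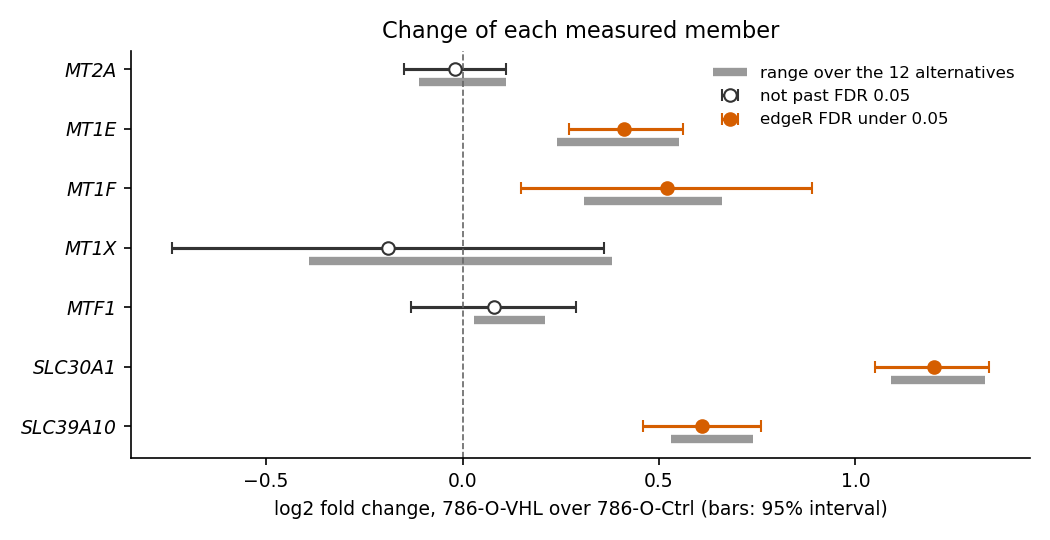
Log2 fold change of 786-O-VHL over 786-O-Ctrl for the 7 measured members (points, with 95% intervals from edgeR), and its range over the 12 alternatives of the processing (grey bars). The intervals of MT1E, MT1F, SLC30A1 and SLC39A10 lie above 0, and those of MT2A, MT1X and MTF1 cross it.

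Between genes, levels were compared as CPM per kilobase of the canonical transcript. In 786-O-Ctrl MT2A was highest, at 1607 and 1580 CPM per kilobase in the deeper and the shallower library, above 99.8% of 12713 genes with a length. MT1E followed at 312 and 306, then MT1F at 16.9 and 18.0 CPM per kilobase. MT1X (12.3 and 10.5), SLC39A10 (11.3 and 10.4) and SLC30A1 (8.19 and 8.96) came next. MT1X was slightly above SLC39A10 within each library, but their order is uncertain because MT1X had few counts and shares sequence with other genes. MTF1 was lowest, at 3.91 and 3.76 CPM per kilobase.
In 786-O-VHL MT2A and MT1E kept their places, at means of 1563 and 404 CPM per kilobase. SLC30A1 moved to 19.3 and 19.7 CPM per kilobase in replicates 1 and 2, above SLC39A10 at 17.9 and 16.2 and below MT1F at 21.5 and 26.0. The places below MT1E depend on the transcript length. Over all annotated exons MT1X was at a mean of only 2.67 CPM per kilobase in 786-O-Ctrl. MT1F, too, was below the 8.22 of SLC39A10 and the 8.58 of SLC30A1. By these means SLC30A1 was above SLC39A10 in 786-O-Ctrl already.

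The other zinc transporters were read from lists of the whole SLC30 and SLC39 families. SLC30 (ZnT) proteins move zinc out of the cytosol or into organelles, and SLC39 (ZIP) proteins bring it into the cytosol. Over all genes tested, 32.6% rose and 31.9% fell in 786-O-VHL. Of 6 SLC30 genes tested, 2 rose and 0 fell with edgeR (median log2 fold change 0.10). At an unadjusted p under 0.05, 1 was lower, and DESeq2 and limma-voom called 0 lower, as did all other alternatives except the exon length and GC correction, which called 2. Besides SLC30A1, the mitochondrial transporter SLC30A9 rose, from 80.5 and 83.4 CPM in 786-O-Ctrl to 100.1 and 101 CPM in 786-O-VHL (log2 fold change 0.30, SE 0.0681, edgeR FDR = 0.000313). SLC30A4, SLC30A5, SLC30A6 and SLC30A7 did not pass, with log2 fold changes between -0.19 and 0.27.
Of 10 SLC39 genes tested, 2 were higher and 5 lower (median log2 fold change -0.21), beside 32.6% and 31.9% of all genes. The largest fall on ample counts was that of SLC39A8 (ZIP8), which imports zinc, manganese and iron. It was at 64.4 and 62.0 CPM in 786-O-Ctrl and at 30.2 and 30.5 CPM in 786-O-VHL replicates 1 and 2, a log2 fold change of -1.06 (SE 0.0870, edgeR FDR = 1.89e-11). The call was kept under every alternative run. SLC39A13 (ZIP13), a transporter of the secretory pathway, fell from 127 ± 0.520 to 84.2 ± 5.46 CPM (n = 2 each, SD), a log2 fold change of -0.56 (edgeR FDR = 4.42e-08). SLC39A9 (ZIP9) was the other gene that rose, with a log2 fold change of 0.26 (edgeR FDR = 0.00243). Its call was lost with DESeq2 (FDR = 0.0576), after thinning (edgeR FDR = 0.0647) and without the deeper 786-O-Ctrl library (log2 fold change 0.26). SLC39A14 and SLC39A6 fell by 0.24 and 0.18 on the log2 scale. At the protein level, the study lists SLC39A14 among those lower and ubiquitinated in 786-O-VHL. SLC39A1 had only 49, 35, 4 and 17 counts in the 786-O-Ctrl pair and 786-O-VHL replicates 1 and 2, a log2 fold change of -1.11 (edgeR FDR = 0.0172). It overlaps an annotated gene on its own strand, and its call was lost with DESeq2 (FDR = 0.19) and without the deeper 786-O-Ctrl library (edgeR FDR = 0.11), the shallower one (edgeR FDR = 0.0874) or 786-O-VHL replicate 2 (edgeR FDR = 0.408). The number of SLC39 genes called lower was 3 with DESeq2, 3 with library totals alone and 2 after thinning, and 3, 2 and 3 when the deeper or shallower library of 786-O-Ctrl or replicate 2 of 786-O-VHL was left out. The number called higher was 1 with DESeq2, after thinning and without the deeper 786-O-Ctrl library. That number was 3 with library totals alone and with the exon length and GC correction.

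**Figure D4:**
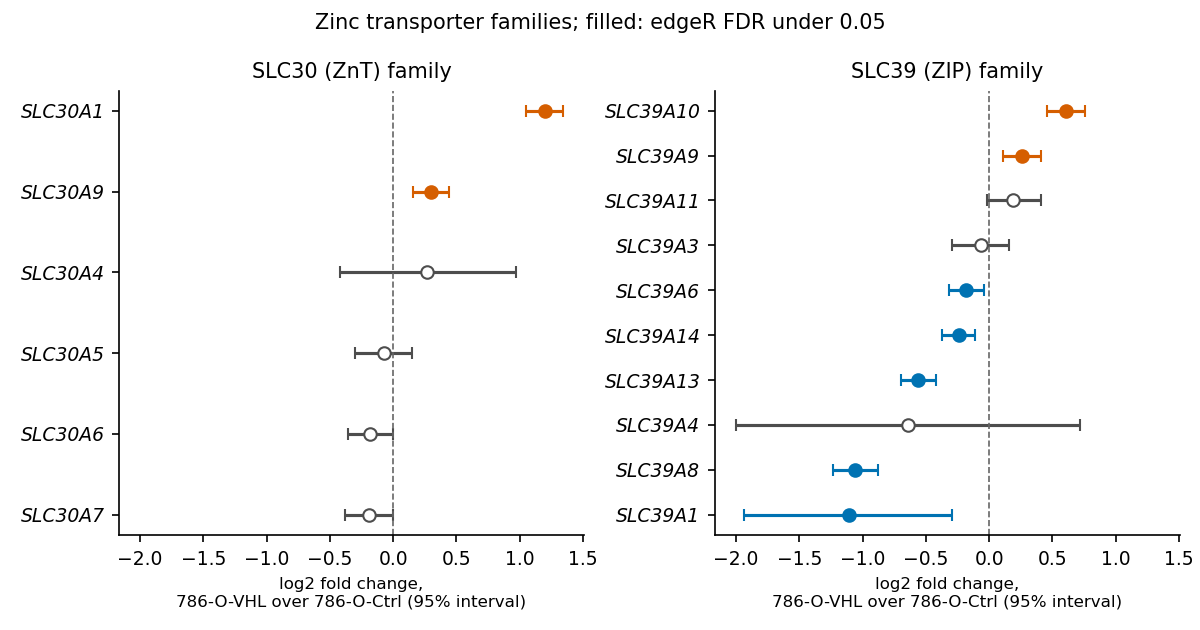
Log2 fold change of 786-O-VHL over 786-O-Ctrl with 95% intervals for the 6 SLC30 and 10 SLC39 genes tested, filled where the edgeR FDR was under 0.05. SLC30A1 at 1.20 and SLC39A10 at 0.61 head their families, and SLC39A8 at -1.06 is among the lowest.

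The 4 measured metallothioneins lie together on the long arm of chromosome 16, and genes on either side of the cluster did not move one way. HERPUD1, a gene of the endoplasmic reticulum stress response on the MT1X side, rose from 51.0 and 50.6 CPM to 143 and 117.5 CPM in 786-O-VHL replicates 1 and 2, a 2.47-fold rise (edgeR FDR = 2.17e-14). BBS2, which lies on the MT2A side and encodes a part of the ciliary BBSome, rose by 0.62 on the log2 scale (edgeR FDR = 2.27e-06). NUP93, a nuclear pore gene and the nearest of these genes beyond MT1X, fell by 0.67 on the log2 scale (edgeR FDR = 3.95e-09), and NUDT21, a gene of mRNA cleavage, fell by 0.38 (edgeR FDR = 2.99e-05). OGFOD1, which overlaps BBS2 and NUDT21 on the opposite strand, was not called (log2 fold change 0.13, edgeR FDR = 0.172), and SLC12A3 was filtered out, at 0.138 CPM in 786-O-Ctrl and 0.348 CPM in 786-O-VHL.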

How the data were processed

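Each 786-O subline, with VHL (786-O-VHL) or without (786-O-Ctrl), gave 2 RNA-seq libraries. The values deposited by the authors are raw whole-number counts per gene on hg19. The submitters' processing notes name CASAVA and STAR. How genes were counted, with which annotation and whether by strand, is not given in the sources used here. Genes were kept by filterByExpr (minimum count 10), scaled by TMM and tested with edgeR 4.0.16 in R 4.3.3, with the group as the only term over all 4 libraries. This left 12335 genes. As DESeq2 was the tool of the study, DESeq2 1.42.0 and limma-voom (limma 3.58.1) were run as alternatives. The common dispersion was 0.00186, and SEs and 95% intervals were derived from the F statistic. Replicates differed by more than sampling noise (chi-square per degree of freedom 2.25 for 786-O-Ctrl, 2.76 for 786-O-VHL). The tests were also run on counts drawn from known means, with the common dispersion for every gene. That setting leaves out differences in spread between genes, and its outcome is not reported here. Other alternatives were RLE factors, library totals, no filter, at least 10 counts in every library, thinning to the shallowest library, each library left out, and a loess correction (span 0.3) for exon length and GC content. Coordinates and lengths are from GENCODE 44 lifted to GRCh37 (hg19), and promoter sequences from RefSeq on GRCh38.p14. Named are the members, VHL, the genes beside the cluster (1 gene is not reported here), and up to 3 called genes per direction of each other list by size of change; SLC39A6 and SLC39A14, DUSP1, NR3C1, FKBP5, HMOX1 and the transporters and copper genes without a call were named after their values were seen. The members and lists were chosen with earlier results of these data known.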

Additional observations from a re-analysis of the deposited data

How the results depend on the processing

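Of the 12 alternatives, MT1E, SLC30A1 and SLC39A10 kept their direction and their side of the threshold under every one. MT1F lost its call with DESeq2 (log2 fold change 0.47) and after thinning (0.34), and ranged from 0.31 to 0.58 with 1 library left out. MT1X, not called, turned to 0.38 after thinning and ranged from -0.39 to 0.38 with 1 library left out. MT2A, not called, turned to 0.11 with library totals alone and to 0.07 with the exon length and GC correction, and ranged from -0.11 to 0.04 with 1 library left out. The shift of 0.13 in all genes with library totals alone is about the size of the MT2A change there. The summed metallothionein level was 841 CPM in 786-O-Ctrl and 988 CPM in 786-O-VHL with library totals alone, and every measured metallothionein row is a member, so summing all of them changed nothing. Genes past 4-fold with an FDR under 0.01 numbered 550, but 232 where at least 10 counts were needed in every library and 346 after thinning, which tested 10730 and 10791 genes in place of 12335. The causes of the differences between the alternatives were not tested. With a library left out, the lone library of its group was assumed to vary like the others. In replicate 1 of 786-O-VHL, the shallowest library, MT1F and MT1X had 27 and 18 counts. No paired analysis was possible because both 786-O-Ctrl columns carry the same replicate number.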

Other observations

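Glucocorticoids are textbook inducers of metallothionein genes, and a list of glucocorticoid-responsive genes was read beside the members. Of 7 tested, 5 rose and 0 fell in 786-O-VHL with edgeR, beside 32.6% and 31.9% of all genes. With so few genes these shares are a description. The list counts were also 5 and 0 at an unadjusted p under 0.05, with DESeq2 and with limma-voom. The median log2 fold change of the 7 genes was 0.67. The exon length and GC correction called 1 lower among them. The transcription factor gene KLF9 rose from 21.7 CPM in both 786-O-Ctrl libraries to 62.4 and 51.8 CPM in 786-O-VHL replicates 1 and 2, or 1.33 on the log2 scale (SE 0.102, edgeR FDR = 3.67e-12). TSC22D3 (GILZ) rose from 36.4 and 41.6 CPM to 96.0 and 87.9 CPM (log2 fold change 1.22, edgeR FDR = 1.96e-13), and the kinase gene SGK1 by 0.75 on the log2 scale (edgeR FDR = 4.42e-06). DUSP1 and the receptor gene NR3C1 rose by 0.67 and 0.36, and FKBP5, a strong glucocorticoid target in many cells, did not pass (log2 fold change -0.10, edgeR FDR = 0.297). In the same libraries MT1E and MT1F rose (log2 fold change 0.41 and 0.52, edgeR FDR = 9.45e-06 and 0.0131), and MT2A and MT1X did not pass the test (edgeR FDR = 0.789 and 0.549).

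Copper is the other physiological metal that metallothioneins bind. Of 13 copper handling genes tested, 1 was higher and 3 lower (median log2 fold change -0.08), beside 32.6% and 31.9% of all genes. STEAP3, a metalloreductase, fell by 0.88 on the log2 scale (edgeR FDR = 1.02e-10), SOD1, the copper and zinc superoxide dismutase, by 0.66 (edgeR FDR = 5.05e-10) and the copper chaperone ATOX1 by 0.49 (edgeR FDR = 0.00023). The copper exporter ATP7A rose (log2 fold change 0.34, edgeR FDR = 0.0394). Its call was lost with DESeq2 (FDR = 0.315) and after thinning (edgeR FDR = 0.446). The exon length and GC correction lost it too (edgeR FDR = 0.134). The same held without the deeper or the shallower 786-O-Ctrl library or 786-O-VHL replicate 2 (log2 fold change 0.23, 0.42 and 0.22). Without 786-O-VHL replicate 2, 5 copper genes were lower. Library totals alone called 4 copper genes higher. The copper importer SLC31A1 did not pass (log2 fold change 0.12, edgeR FDR = 0.112).

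Of 8 genes of metal and thiol stress tested, 3 were higher and 4 lower, beside 32.6% and 31.9% of all genes. The median log2 fold change of the 8 was -0.19. The cystine transporter SLC7A11 and the thioredoxin reductase TXNRD1 rose by 0.67 and 0.42 on the log2 scale (edgeR FDR = 2.49e-08 and 1.06e-06). The heat shock gene HSPH1 fell by 1.05 and GCLM, the modifier subunit of glutamate-cysteine ligase, by 0.83 (edgeR FDR = 4.03e-13 and 5.05e-11), while GCLC, its catalytic subunit, rose by 0.35 (edgeR FDR = 0.00341). The GCLC call was lost with DESeq2 (FDR = 0.103) and after thinning (edgeR FDR = 0.088). It was also lost without the deeper 786-O-Ctrl library (log2 fold change 0.31) and without 786-O-VHL replicate 2 (0.26). SRXN1 fell by 0.48 (edgeR FDR = 0.022), a call lost with DESeq2 (FDR = 0.145) and library totals alone (edgeR FDR = 0.0947). Thinning (edgeR FDR = 0.378) and the exon length and GC correction (edgeR FDR = 0.0512) lost it too. The same held without the deeper 786-O-Ctrl library (log2 fold change -0.38) and without 786-O-VHL replicate 2 (-0.65). HMOX1, which many metals induce, was not called, with a log2 fold change of 0.02 (edgeR FDR = 0.83). This value is of mRNA, whereas the study lists HMOX1 among proteins that were lower and ubiquitinated in 786-O-VHL.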
